A study of Sus scrofa with 42 samples.

Results

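The SMAD genes encode the proteins that carry TGF-β superfamily signals from receptors to the nucleus. Here they were chosen by name from a list of 8 SMAD genes, SMAD1 to SMAD7 and SMAD9, and the list was selected because SMAD5 had been seen to change differently in IVF and PA embryos at the 8-cell stage. Of 15351 genes in the table, 6 carried one of these names, and SMAD7 was added by its gene ID, which gave 7 SMAD genes. SMAD9 was not analysed here. A gene entered the test if 3 or more cells held 1 FPKM or more of it, and 6 of the 7 SMAD genes did, as did 8116 genes in all. SMAD6 did not pass, and SMAD7 passed through exactly 3 cells, of which 2 were 8-cell blastomeres.

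Ligands of the superfamily bind type I and type II receptors, and the type I receptor phosphorylates receptor-regulated SMADs. SMAD1, SMAD5 and SMAD9 belong to the bone morphogenetic protein (BMP) branch, whereas SMAD2 and SMAD3 belong to the TGF-β, activin and nodal branch. SMAD4 is the common partner of both branches in the nucleus, and SMAD6 and SMAD7 are inhibitory SMADs that restrain the receptors. The mammalian oocyte secretes BMP15 and GDF9, and the early embryo runs first on RNA stored in the oocyte before its own genome takes over.

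The embryos were from pig oocytes of slaughterhouse ovaries matured in vitro. IVF embryos were made by coincubation with sperm, and PA embryos, which have no paternal genome, were made by electric pulses followed by 6-DMAP and cytochalasin B. Single cells were taken from 1-cell embryos at 19 h, 2-cell embryos at 27 h, 4-cell embryos at 48 h and 8-cell embryos at 72 h, and 42 cells from 20 embryos were sequenced. The embryo was taken as the replicate, with 3 embryos in each group from the 1-cell to the 4-cell stage and 1 embryo, represented by 3 blastomeres, in each 8-cell group. The labels give no strain, and nothing states that embryos of one group came from separate collections, so p-values measure the spread between these embryos. An 8-cell group of 1 embryo shows no such spread. All p-values of 4- to 8-cell steps, of SMAD and pathway genes alike, therefore lend it the spread of the 1- to 4-cell groups.

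FPKM values count fragments per kilobase of gene, scaled to library size, so levels can be compared between genes. Reads on genes numbered 4583977 to 15607928 per cell, with a median of 10549361. Of 861 pairs of cells, 2 stood apart: PA 4-cell-2-1 with PA 2-cell-2-1, and PA 4-cell-1-4 with PA 2-cell-1-2, each with a Pearson r of 0.999 against 0.908 for the next pair. Whether each pair is the same library under 2 stages cannot be told from the values. This touches every PA 2- and 4-cell mean and the steps that use them. Mitochondrial mRNAs made up 15.6% and 11.5% of the FPKM in PA 4-cell-1-4 and 2-1. The share was 11.2% to 15.2% in PA 2-cell blastomeres and 17.5% to 54.0% in the other PA 4-cell blastomeres. By this share the 2 cells lay nearer the PA 2-cell blastomeres, but the stage of such a library was not tested. Some PA 4-cell results on SMAD genes and the calls on pathway genes are therefore also given without PA 4-cell-1-4 and 2-1, the near-repeat blastomeres. The other PA 4-cell results include them. Of 14 oocyte and early-embryo markers, 10 were in the table, and their summed FPKM was 866 to 1671 in 1- and 2-cell blastomeres and 1.59 to 197 in 8-cell blastomeres. The 5 cumulus and granulosa markers in the table (of 12) summed to at most 30.2 FPKM in any cell. The 1 sperm marker in the table (of 6) reached at most 9.02 FPKM.

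SMAD5, on chr2:138287431-138344762 (plus strand, Sscrofa11.1), was the dominant SMAD gene of these embryos. Its FPKM was 237.9, 156.4 and 193.5 in the 3 IVF 1-cell embryos and 143.1, 130.6 and 235.9 in the 3 PA 1-cell embryos. The means were 196 ± 40.8 and 169.9 ± 57.5 (SD, n = 3), which ranked 71st and 86th among 15351 genes. At the 2-cell stage the embryo means were 179, 133 and 122 in IVF and 287, 247 and 153 in PA. At the 4-cell stage they were 99.0, 135.5 and 65.9 in IVF and 172.9, 186.5 and 68.2 in PA. The IVF and PA embryos overlapped at each of these stages.

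At the 8-cell stage the blastomeres of the IVF embryo held 0.494, 0.327 and 0.625 FPKM of SMAD5, from 43 to 128 reads. The blastomeres of the PA embryo held 7.92, 144.9 and 116.5 FPKM, from 2412 to 26837 reads. The PA mean of 89.8 FPKM was 186 times the IVF mean of 0.482 FPKM, and the lowest PA blastomere was 12.7 times the highest IVF one. PA 8-cell-1-1 was the low blastomere, and the other two averaged 131 FPKM. All 3 IVF 8-cell blastomeres lay below every IVF 4-cell blastomere, the lowest of which was 19.5 times the highest IVF 8-cell value. From the 4- to the 8-cell stage the difference in log2(FPKM + 1) was -6.03 in IVF and -0.53 in PA. In the PA step it was 0.0061 without PA 8-cell-1-1 and -0.22 without the near-repeat PA 4-cell blastomeres. These values led to the choice of the genes, so they are a description without a test, and each 8-cell group is 1 embryo. The summed oocyte markers were 7.01 to 197 FPKM in 8-cell blastomeres of IVF and 1.59 to 87.2 FPKM in those of PA, and mitochondrial mRNAs made up 23.9% to 46.8% and 37.7% to 46.5% of the FPKM. The part of either in the SMAD5 values was not tested.

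**Figure D1:**
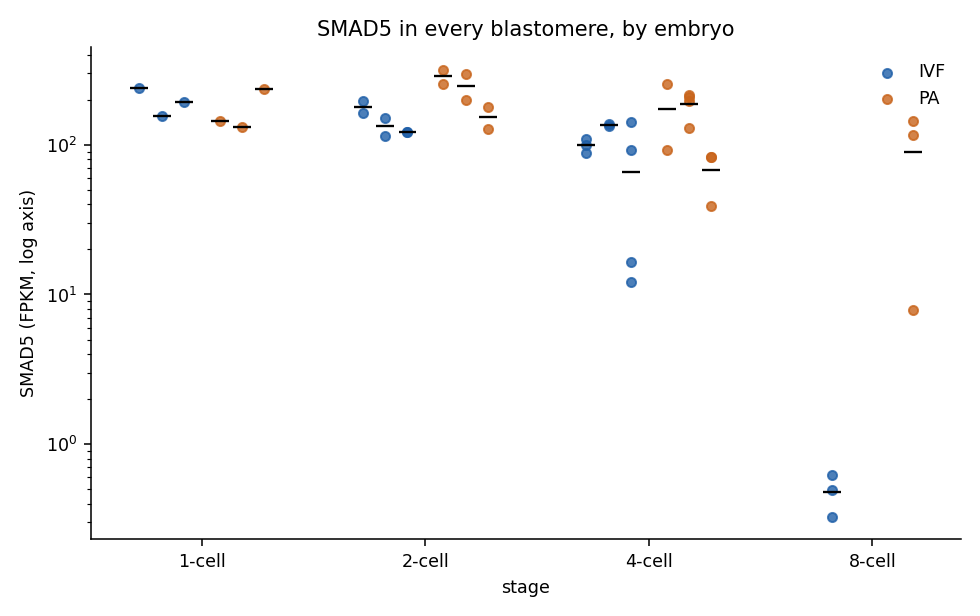
SMAD5 FPKM on a log axis for every blastomere, with IVF and PA side by side at each stage; each column of points is an embryo and the black line is its mean. The IVF 8-cell blastomeres sit between 0.327 and 0.625 FPKM, below all other cells, and PA 8-cell-1-1 at 7.92 sits below its sisters at 144.9 and 116.5.

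Ordered by group mean, SMAD5 was highest in PA 2-cell embryos, at 229 ± 68.5 FPKM. IVF 1-cell, PA 1-cell, IVF 2-cell (145 ± 30.3), PA 4-cell (143 ± 64.7) and IVF 4-cell embryos (100.1 ± 34.8) followed. Neighbours in this order overlapped in their embryo values, and the PA 8-cell embryo lay within the range of the IVF 4-cell embryos. Only the IVF 8-cell embryo lay outside the range of its neighbour. Without the near-repeat blastomeres the PA 4-cell embryos held 91.7, 183 and 68.2 FPKM, with a mean of 114 ± 60.7 FPKM.

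Sister blastomeres of the 2-cell embryos were alike in SMAD5, with the higher at 1.00 to 1.49 times the lower. Among 4-cell embryos, IVF embryo 3 stood apart, since blastomeres 3-1 and 3-4 held 16.5 and 12.2 FPKM and their sisters 142.5 and 92.3 FPKM. The other 7 IVF 4-cell blastomeres, sisters included, held 88.3 to 142.5 FPKM. In 3-1 and 3-4 the summed oocyte markers were 627 and 701 FPKM, within the 406 to 1451 FPKM of the other 7. Their reads on genes, 7425192 and 10060564, also lay within the range of the others. The 8-cell PA embryo had the widest spread, with an 18.3-fold span between sisters.

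SMAD5 accounted for 93.4% to 98.6% of the summed SMAD FPKM in the 1- to 4-cell groups and for 94.7% in the PA 8-cell embryo, but for 2.27% in the IVF 8-cell embryo. There SMAD7 made up 77.0% and SMAD4 20.6% of the sum, but SMAD7 came from 8-cell-1-3 alone. Without that blastomere the sum was 3.96 FPKM, of which SMAD4 made up 88.8% and SMAD5 10.4%. The summed SMAD FPKM of the 8-cell embryos was 21.2 in IVF and 94.8 in PA.

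SMAD5 was tested apart from the stage whose values led to the choice of the genes here. No step from the 1- to the 2-cell or the 2- to the 4-cell stage was called, with calls made at an adjusted p below 0.05 in limma (Benjamini-Hochberg) and a fold change of at least 2. The log2 differences were -0.43 ± 0.50 (SE) and -0.57 ± 0.50 in IVF, and 0.43 ± 0.50 and -0.76 ± 0.50 in PA. The PA 2- to 4-cell step was -1.07 without the near-repeat blastomeres, and 2.07 and called when cells were scaled by their median ratio. IVF against PA gave 0.23, -0.63 and -0.43 at the 1-, 2- and 4-cell stage, with an SE of 0.50 and adjusted p of 1.00, 0.97 and 0.76. At the 4-cell stage the difference was -0.12 without the near-repeat blastomeres and -2.62, then called, under median-ratio scaling. The steps did not differ detectably between IVF and PA, with interactions of -0.86 ± 0.70 and 0.19 ± 0.70. The study lists SMAD5 among the genes lower in IVF than in PA at both the 2- and the 4-cell stage, using DEseq2. Here both differences had that direction in limma with embryos as units. The only call was at the 4-cell stage under median-ratio scaling. Why the calls differ from those of the study was not tested. Because SMAD5 was named by the study on these same embryos, none of this is independent of that choice.

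Over the 20 embryos, the genes whose log2(FPKM + 1) was most like SMAD5 were KTN1 (Pearson r = 0.914), MMS22L (0.902), ESCO2 (0.894), USP46 (0.889) and SASS6 (0.881). KTN1 encodes a kinesin-binding protein, ESCO2 a cohesin acetyltransferase and SASS6 a centriole protein. Spearman's rho was lower, at 0.343 to 0.668. The mean of KTN1 was 105.4 FPKM in IVF 4-cell embryos, 0.395 in the IVF 8-cell embryo and 23.0 in the PA 8-cell embryo. USP46 was 129 FPKM, 12.1 FPKM and 131 FPKM in these groups. The points share libraries and stages, and the IVF 8-cell embryo weighs heavily in them.

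The other BMP-branch gene in the table, SMAD1 (chr8:82907994-82988048, minus strand), was scarce. It reached 1 FPKM in 8 of 42 cells, all at the 1- and 2-cell stages. IVF 1-cell embryos held 3.79, 2.14 and 1.57 FPKM, and in PA 1 of 3 embryos exceeded 1 FPKM, with 2.46. At the 2-cell stage the cells above 1 FPKM held 5.67, 4.65 and 2.90 in IVF and 4.84 in PA. No 4- or 8-cell blastomere exceeded 0.188 FPKM. The IVF 2- to 4-cell difference was -1.49 ± 0.61 with an unadjusted p of 0.024 and an adjusted p of 0.21, so it was not called. In the RefSeq annotation another locus overlaps SMAD1.

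SMAD2 (chr1:97415716-97511880, minus strand) and SMAD3 (chr1:164998457-165124449, plus strand) were on or off between cells. SMAD2 reached 1 FPKM in 5 of 6 1-cell embryos, 9 of 12 2-cell blastomeres, 4 of 18 4-cell blastomeres and 0 of 6 8-cell blastomeres. The 18 cells held 1.70 to 22.3 FPKM, from 413 to 7585 reads, whereas the other cells had a median of 3 reads. The IVF 1-cell embryos held 4.89, 5.86 and 6.16 FPKM of SMAD2, and the PA ones held 0.701, 6.85 and 1.70 FPKM. In IVF 4-cell embryo 3, blastomeres 3-2 and 3-3, those with high SMAD5, held 7.48 and 7.27 FPKM of SMAD2, and 3-1 and 3-4 were not among the 18 cells. The highest were PA 2-cell-3-1 at 22.3 FPKM and PA 4-cell-3-1 at 17.5 FPKM. All 6 IVF 2-cell blastomeres held SMAD2, against 3 of 6 in PA.

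SMAD3 reached 1 FPKM in 7 cells, at 2.68 to 16.1 FPKM, and in no 4- or 8-cell blastomere. These were 2 IVF 1-cell embryos at 2.68 and 3.53 FPKM, 3 IVF 2-cell blastomeres at 3.52, 7.77 and 4.83 FPKM, and PA 2-cell-1-1 and 3-1 at 2.68 and 16.1 FPKM. All 7 of these cells, and all 8 cells with SMAD1, were among the 18 with SMAD2. The table's gene that overlaps SMAD3 on the opposite strand was at 0 in all cells. In the RefSeq annotation AAGAB overlaps SMAD3. From the 2- to the 4-cell stage the difference in SMAD3 was -1.68 ± 0.73 in IVF (unadjusted p 0.032, adjusted p 0.24) and -1.47 ± 0.73 in PA (adjusted p 0.49). For SMAD2 it was -1.01 ± 0.89 in IVF and -1.54 ± 0.89 in PA. None of these was called, and without the near-repeat blastomeres the PA values were -1.47 for SMAD3 and -1.54 for SMAD2, also not called.

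**Figure D2:**
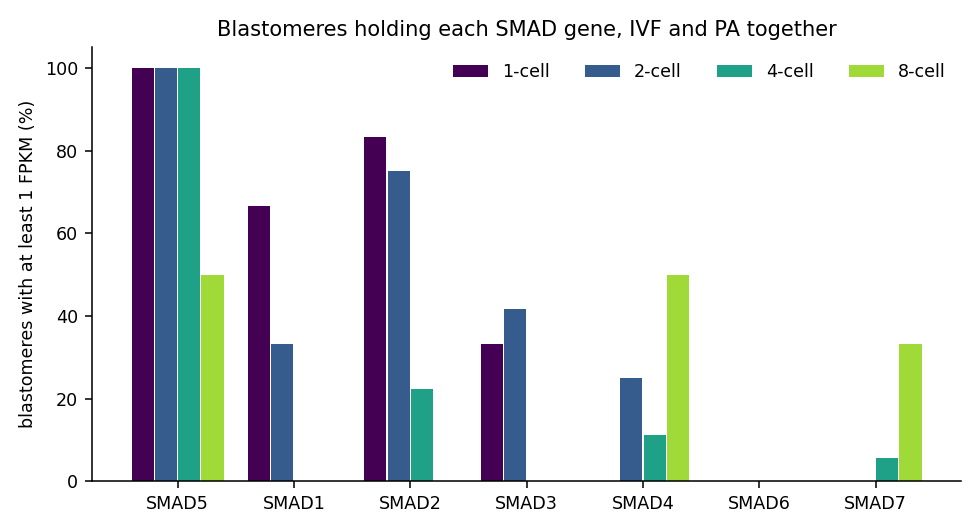
Percent of blastomeres with at least 1 FPKM of each SMAD gene at each stage, IVF and PA together (6, 12, 18 and 6 cells). SMAD1, SMAD2 and SMAD3 are held by cells of the early stages, while SMAD4 and SMAD7 have their highest shares at the 8-cell stage, in 3 and 2 of 6 blastomeres.

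SMAD4 (chr1:100514791-100632822, plus strand), the common partner, was low in the 1-cell embryos, where no embryo exceeded 0.478 FPKM. It reached 1 FPKM in 8 of 42 cells. These were 2 IVF 2-cell blastomeres at 4.47 and 3.26 FPKM, 1 PA 2-cell blastomere at 7.53 FPKM, 2 IVF 4-cell blastomeres at 2.06 and 6.90 FPKM, 2 IVF 8-cell blastomeres at 6.96 and 6.12 FPKM, and 1 PA 8-cell blastomere at 4.85 FPKM. Of the 14 embryos with more than 1 blastomere sequenced, 7 held SMAD4 in some but not all of them and none in all. From the 4- to the 8-cell stage the difference was 1.45 ± 0.91 in IVF (adjusted p 0.43) and 1.38 ± 0.91 in PA (adjusted p 0.47). Without the near-repeat blastomeres the PA value was also 1.38. Neither step was called. Both were with median-ratio scaling, and the PA step also was with only the groups compared (1.38, adjusted p 0.027). ELAC1, which overlaps SMAD4 on the same strand, was at 0 in all cells without SMAD4. In the cells with SMAD4 its median was also 0 and its maximum 4.76 FPKM. Another locus of the RefSeq annotation also overlaps SMAD4. How reads in the overlaps were counted is not stated, so the values may be shared between these genes.

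Of the inhibitory SMADs, SMAD6 (chr1:164657086-164734703, plus strand) was above 0 in 1 cell alone, PA 1-cell-2, at 1.00 FPKM. SMAD7 (chr1:98510229-98542315, minus strand) was listed at 1.60 FPKM in IVF 4-cell-2-3, at 49.0 FPKM in IVF 8-cell-1-3 and at 10.2 FPKM in PA 8-cell-1-1. In the 39 other cells it held at most 9 reads, and the remaining 8-cell blastomeres were at 0. From the 4- to the 8-cell stage SMAD7 rose by 3.82 ± 0.44 in IVF (adjusted p 1.2e-05) and by 2.13 ± 0.44 in PA (adjusted p 0.0034). Each call rests on 1 blastomere of 1 embryo. Without those blastomeres the differences were -0.30 and -0.0024. SMAD7 passed the filter through 3 cells, 2 of them those blastomeres, so the group where it is high let it into the test. Its p-values therefore carry little weight. Without the near-repeat PA 4-cell blastomeres the PA value was also 2.13. The test lends the lone 8-cell embryo the spread of the other groups, and the size depends on the 1 FPKM added to each value. With blastomeres as units the adjusted p was 0.072 in IVF and 0.32 in PA, and with only the groups compared the IVF call was lost (adjusted p 0.42).

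**Figure D3:**
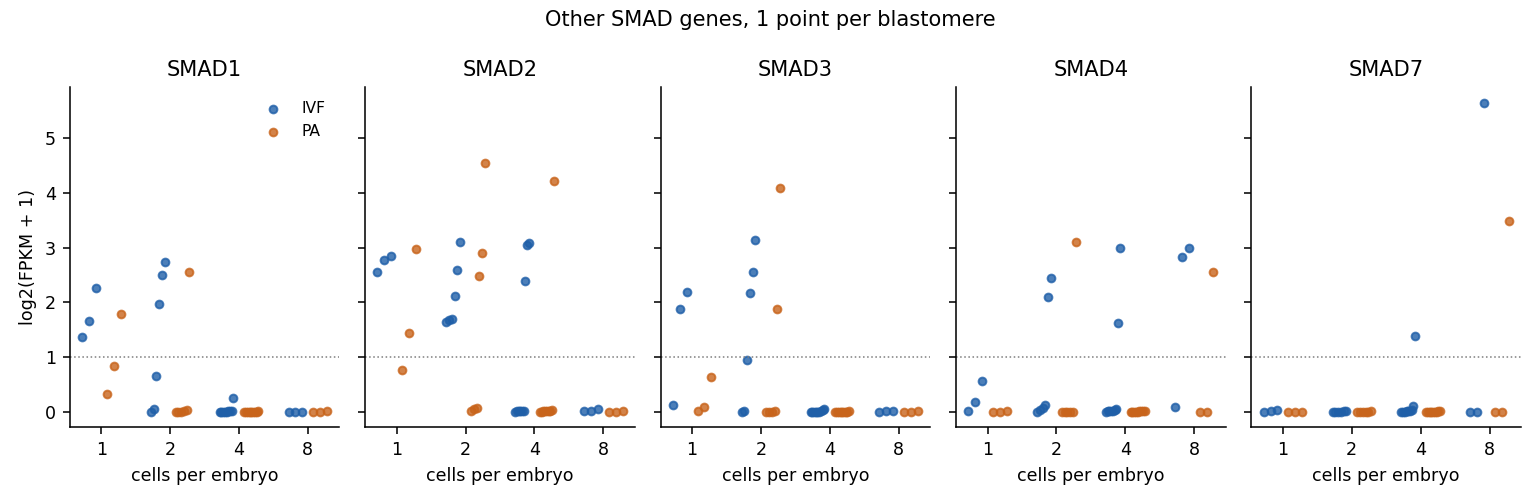
Log2(FPKM + 1) of SMAD1, SMAD2, SMAD3, SMAD4 and SMAD7 in every blastomere, blue for IVF and orange for PA; the dotted line is 1 FPKM. Most cells lie near 0 and a few stand well above the line. For SMAD7 these are the blastomeres at 49.0 and 10.2 FPKM.

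Counts of calls among the SMAD genes stayed low. From the 1- to the 2-cell stage 0 of 6 were called in IVF and 0 of 6 in PA, beside 0.0% and 0.0986% of all genes tested. In IVF limma called no gene at that step although 216 had an unadjusted p below 0.05. From the 2- to the 4-cell stage 0 of 6 were called in both, beside 1.11% and 0.394%. From the 4- to the 8-cell stage 1 of 5, SMAD7, was called in each, with SMAD5 left out, beside 6.97% and 9.99%. SMAD7 passed the filter only with the 8-cell blastomeres where it is high, so that count carries little weight. For IVF against PA, 0 of 6 were called at each stage, beside 0.0493%, 0.0% and 0.554% of all genes at the 1-, 2- and 4-cell stage. For the differences in the steps, 0 of 6 were called beside 0.0% and 0.0%. In those sets with no calls at all, 441, 227 and 434 genes had an unadjusted p below 0.05. At the 1-cell stage all 6 SMAD genes tested were higher in IVF than in PA, with a median of 0.51 against 0.24 over all genes, and no adjusted p was below 1.00. SMAD7 (0.013) and SMAD4 (0.24) were near the floor there, with at most 0.0189 and 0.478 FPKM in any 1-cell embryo. SMAD6, which was not tested, was above 0 in PA 1-cell-2 alone.

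**Figure D4:**
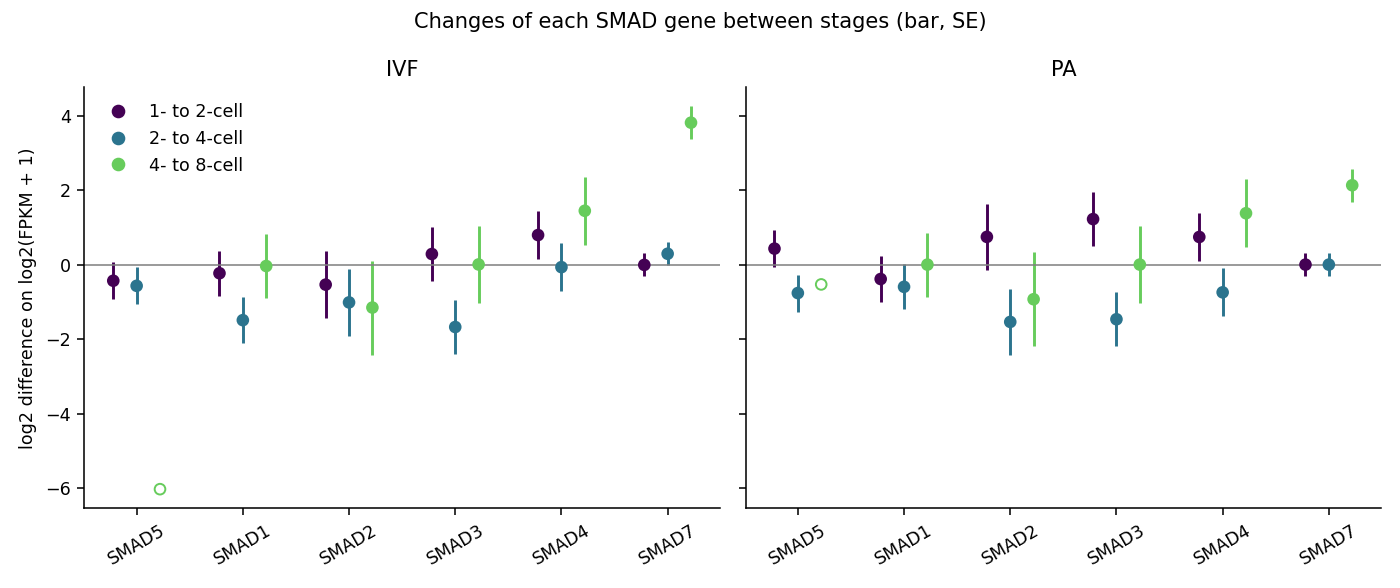
Difference in log2(FPKM + 1) between consecutive stages for each SMAD gene, with the SE as a bar; open circles for SMAD5 at the 4- to 8-cell step have no error because they are a description. SMAD7 is the only gene with a called step, at 3.82 in IVF and 2.13 in PA. It passed the filter only with the 8-cell blastomeres where it is high, so these calls carry little weight.

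Around the SMADs, 43 genes of 9 lists of the pathway are described among those tested. The lists were fixed with earlier results of these data known, and 3 of the 43 rose and 2 fell in the IVF 4- to 8-cell step, while 0 rose and 5 fell in the PA step. That is 11.6% of the 43 in each, beside 6.97% in IVF and 9.99% in PA of all 8116 genes tested. These shares pool both directions. By direction, 302 of all genes rose and 264 fell in IVF, and 553 rose and 258 fell in PA. In the PA step the pathway calls were all falls, whereas most calls over all genes were rises. That difference in balance was not tested. The other tested steps and contrasts had 0 calls in limma, with 0 to 6 of the 43 at an unadjusted p below 0.05. Without the near-repeat blastomeres, 3 of 43 (BMP15, USP9X and SMURF2) fell and 0 rose in the PA 4- to 8-cell step. Of all 8116 genes, 132 then fell and 657 rose, which is 9.72% for both directions together. In the PA 2- to 4-cell step 5 of 43 were then called, beside 7.41% of all genes (93 up and 508 down). With all cells that share was 0.394%. These were GDF3 and SKIL, higher, and BMPR2, ID3 and CDKN2B, lower, of which CDKN2B is named after its values were seen. IVF against PA at the 4-cell stage then had 0 of 43 and 0 of 6 SMAD genes called, beside 4.07% of all genes. Median differences of the 43 genes were -0.58 in IVF and -0.34 in PA at the 4- to 8-cell step, beside -0.38 and -0.15 over all genes. Summed oocyte markers, a list that contains GDF9 and BMP15, were lower in 8-cell than in most 4-cell blastomeres, and their part in these calls was not tested. When only the groups compared were fitted, all 10 of these pathway calls were lost, with adjusted p of 0.062 to 0.46.

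Among ligands, BMP15, the oocyte-secreted BMP, fell by 6.54 in IVF (adjusted p 4.9e-06) and fell by 4.61 in PA (adjusted p 2.4e-04). Without the near-repeat blastomeres the PA value was -4.10 (adjusted p 0.0040). Its means were 136 ± 68.5 and 136 ± 33.4 FPKM at the 4-cell stage and 0.357 and 4.47 FPKM at the 8-cell stage. The PA 8-cell blastomeres held 0.220, 0.527 and 12.7 FPKM of BMP15. GDF9, its partner in the oocyte, was 34.6 ± 20.6 and 11.5 ± 11.2 FPKM at the 4-cell stage and 7.74 and 12.5 FPKM at the 8-cell stage, and was not called. Without those blastomeres the PA 4-cell means were 110.5 ± 65.6 FPKM of BMP15 and 7.53 ± 5.90 FPKM of GDF9.

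Among receptors, BMPR2, a type II receptor for BMPs, fell by 3.05 in PA (adjusted p 0.026) but not detectably in IVF (-0.42 ± 0.85). Without the near-repeat blastomeres this step was -1.32 and not called (adjusted p 0.75), and the PA 2- to 4-cell step was -2.95 and called (adjusted p 0.036). The type I receptor ACVR1B was 10.2 ± 11.6 FPKM in IVF and 14.0 ± 14.9 FPKM in PA 4-cell embryos, and 0.0612 and 0.0239 FPKM at the 8-cell stage, without a call. BMPR1A, a BMP type I receptor, was 10.02 ± 14.9 and 3.35 ± 1.95 FPKM at the 4-cell stage and at most 0.0488 FPKM in any 8-cell blastomere. Without the near-repeat blastomeres the PA 4-cell means of ACVR1B and BMPR1A were 10.7 ± 17.7 and 2.02 ± 3.10 FPKM. TGFBR1, ACVR2A and ACVR2B were not called either. TGFBR1 was 0.298 and 0.947 FPKM in IVF and PA 4-cell embryos (0.0042 in PA without the near-repeat blastomeres). Its 8-cell means of 7.47 FPKM in IVF and 14.3 FPKM in PA each came from 1 blastomere. The type I receptor BMPR1B, named after its values were seen, was not called. It averaged 6.17 and 6.73 FPKM at the 4-cell stage and 3.38 and 2.58 FPKM at the 8-cell stage. RGMB, a BMP co-receptor, rose by 3.40 in IVF (adjusted p 0.033), through 1 blastomere at 33.5 FPKM with its sisters at 0, and the call was lost in 11 of 30 alternatives.

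Among the enzymes that act on SMADs, SMURF2, a ubiquitin ligase for SMADs and receptors, fell by 5.45 in IVF (adjusted p 1.2e-04) and by 4.70 in PA (adjusted p 5.5e-04). Its means were 49.7 ± 2.76 and 29.0 ± 14.1 FPKM in 4-cell embryos, and no 8-cell blastomere exceeded 0.177 FPKM. USP9X, the deubiquitinase of SMAD4, fell by 4.56 in PA (adjusted p 0.0062). Without the near-repeat blastomeres the PA values were -4.37 for SMURF2 (adjusted p 0.0027) and -4.83 for USP9X (adjusted p 0.0092). In IVF its 8-cell blastomeres held 0.208, 69.7 and 0.168 FPKM. SMURF1 was above 1 FPKM in 1 of the 9 IVF 4-cell blastomeres and was at 0 in every PA cell, and was not tested.

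Among nuclear partners, SKIL, a co-repressor of SMADs, rose by 4.02 in IVF (adjusted p 0.013), with 0, 35.4 and 18.9 FPKM in the 8-cell blastomeres. In PA it was 1.39 FPKM at the 8-cell stage, and its PA 2- to 4-cell step was not called with all cells but was without the near-repeat blastomeres (2.71, adjusted p 0.035). SKI stayed below 1 FPKM on average in every group. FOXH1 was not analysed here.

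Among target genes, ID3, a BMP target, was 391 ± 213 and 616 ± 358 FPKM at the 1-cell stage and 1.21 and 0.694 FPKM in the 8-cell embryos. It fell by 4.86 in the PA 4- to 8-cell step (adjusted p 0.025), but without the near-repeat blastomeres the value was -1.07 and not called (adjusted p 0.88), while the PA 2- to 4-cell step was then -6.40 and called (adjusted p 3.2e-04). In IVF the 4- to 8-cell step was -2.65 ± 1.34 (adjusted p 0.30). ID1 did not exceed 2.59 FPKM in any cell and ID2 did not exceed 0.423 FPKM, and neither was tested. MSX2, a homeobox target of BMP signals, rose by 3.88 in IVF (adjusted p 1.9e-05), with 11.3, 0.788 and 32.3 FPKM in the 8-cell blastomeres, and was at 0 in the PA 4- and 8-cell blastomeres. It passed the filter through 3 cells, 2 of them these blastomeres of 1 embryo, so the group where it is high let it into the test and its p-value carries little weight.

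**Figure D5:**
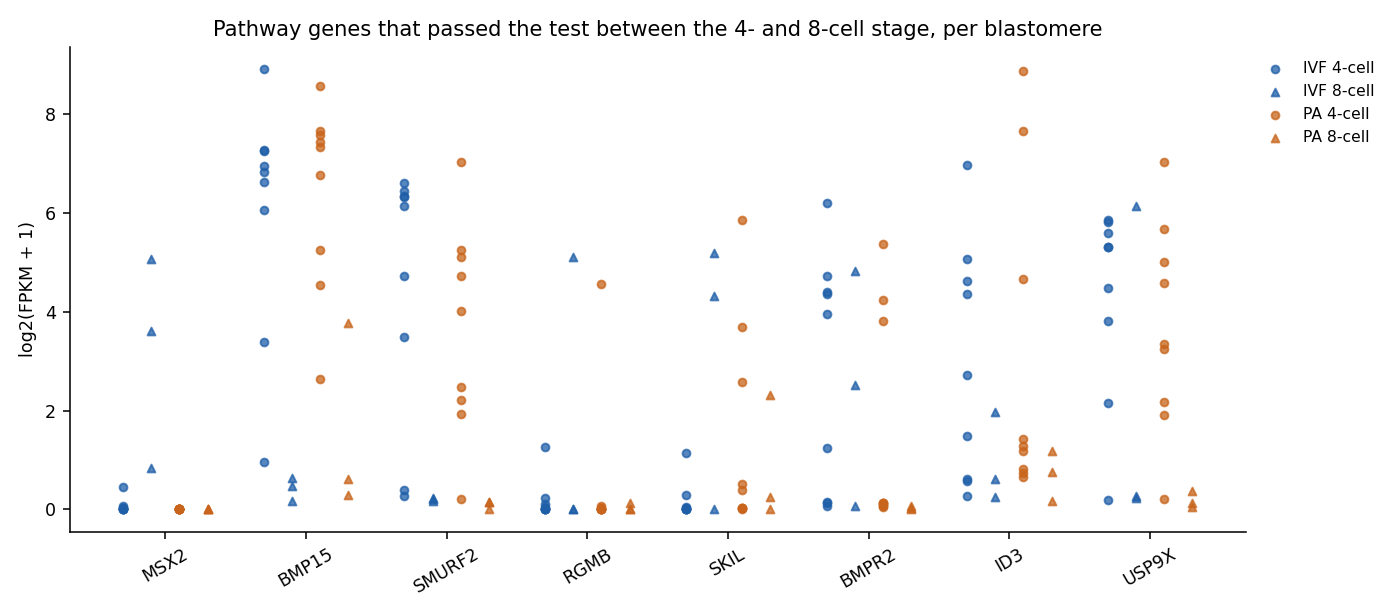
Log2(FPKM + 1) per blastomere of the 8 pathway genes described here that passed the test between the 4- and 8-cell stage, with circles for 4-cell and triangles for 8-cell blastomeres. SMURF2 is low in 8-cell blastomeres of both methods, and so is BMP15 except in 1 PA blastomere, at 12.7 FPKM. Above 1 FPKM in the IVF 8-cell blastomeres were MSX2 in 2 of 3, SKIL in 2 of 3 and RGMB in 1 of 3.

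Genes most like SMAD2 across embryos were SLC3A1 (r = 0.892) and AGTPBP1 (0.842), among those reported here. Those most like SMAD4 were HMGA1 (0.779), BCCIP (0.774) and RPL7 (0.774), a ribosomal protein gene. RPL7 had 172 FPKM in IVF and 131 FPKM in PA at the 8-cell stage, and means of 33.0 and 1.22 FPKM at the 4-cell stage. BCCIP had 146 FPKM and 100.2 FPKM in those 8-cell embryos.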

How the data were processed

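The SMAD genes, lists and alternatives were chosen with earlier results of these data known. The authors amplified cDNA of single cells, with or without polyA tails, mapped reads with Hisat2 to Sscrofa11.1, used StringTie for assembly and HTSeq for counting, and deposited FPKM for 15351 genes. Versions, strandedness and molecular identifiers are not given in the sources used here, and the extraction protocol in the labels describes another procedure. Whole reads were recovered from the FPKM steps for 99.8% of 8647 genes above 0 in at least 10 cells (tolerance 0.002 reads) and give depth only. Intervals of amplified reads cover counting error only.

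An embryo's value was log2 of the mean FPKM of its blastomeres plus 1. The 8116 genes that reached 1 FPKM in 3 or more cells were fitted with limma 3.58.1 (R 4.3.3), with all 8 groups and a mean-variance trend, and p-values were adjusted by Benjamini-Hochberg over all genes. SMAD5 at the 4- to 8-cell step and IVF against PA at the 8-cell stage were not tested. Genes were named by rule: all SMADs, pathway genes called in any comparison, the highest gene of each list, 16 fixed pathway genes, and the 5 (SMAD5) or 3 (SMAD2, SMAD4) genes with the highest Pearson r. Of the genes that this rule names, 2 are not reported here, and the list counts leave them out. Alternatives were other pseudocounts, filters, scalings, units, fits and left-out embryos (of the 1- to 4-cell groups only) or cells. Python 3.11.15, numpy 2.4.6, pandas 2.3.3 and matplotlib 3.10.9 were used.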

Additional observations from a re-analysis of the deposited data

Results flagged for a closer look

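Of 28 groups of 6 or 9 blastomeres examined gene by gene, 8 had a blastomere far from the others on log2(FPKM + 1). The rule flags about 1 in 20 groups of normally distributed values, but many of these groups are mostly zeros. A lone cell above 0 among zeros is flagged whatever its value, and the SMAD6 groups, all at 0, could not be flagged. The count of 8 therefore cannot be set against that rate. SMAD2 was 17.5 FPKM in PA 4-cell-3-1, with no other PA 4-cell blastomere at 1 FPKM. SMAD4 was 7.53 FPKM in PA 2-cell-3-2, with all other PA 2-cell blastomeres at 0. SMAD1 was 4.84 FPKM in PA 2-cell-1-1. SMAD7 was 1.60 FPKM in IVF 4-cell-2-3. The remaining 4 were far below 1 FPKM and came from few reads: SMAD1 at 0.188 in IVF 4-cell-1-4 and 0.0108 in PA 4-cell-1-3, SMAD3 at 0.00965 in PA 4-cell-1-4, and SMAD7 at 0.00629 in PA 2-cell-1-1. The 1- to 2-cell and 2- to 4-cell steps of the 6 SMAD genes tested did not differ between IVF and PA past the threshold, and the 4- to 8-cell steps were not compared by a test.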

How the results depend on the processing

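Of 1312 values under the alternatives, 1234 were counted as the same, which for a tested difference means the same call and direction. A further 41 kept the direction but lost the call, 6 kept it and gained one, and 9 turned direction. The other 22, counts or untested values, moved. Many alternatives left out an embryo outside the comparison, which cannot change its difference, so this count does not measure robustness. Counts of SMAD genes called moved as follows. At the IVF 4- to 8-cell step the count of 1 became 0 with FPKM of at least 5 in 3 cells, with blastomeres as units, with only the groups compared, and without IVF 8-cell-1-3 and PA 8-cell-1-1 (left out after their values were seen), and 2 with median-ratio scaling. At the PA 4- to 8-cell step the count of 1 became 0 with a pseudocount of 5, with FPKM of at least 5 in 3 cells, with blastomeres as units and without those 2 blastomeres, and 2 with median-ratio scaling and with only the groups compared. With blastomeres as units it went from 0 to 2 at the IVF 2- to 4-cell step. Under median-ratio scaling it went from 0 to 1 at the PA 2- to 4-cell step and in the 4-cell contrast of IVF with PA. Leaving out an embryo of the 1- to 4-cell groups kept every count, from 0 to 0 or 1 to 1. The lone 8-cell embryos were never left out, so this cannot show whether the 4- to 8-cell calls depend on them.

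SMAD5 turned direction under median-ratio scaling, whose factors spanned 104-fold, to 0.56 in the IVF and 2.07 in the PA 2- to 4-cell step, to -0.20 for IVF against PA in 1-cell embryos, and to -1.51 for the difference of the 2- to 4-cell steps. That last value was -0.18 with blastomeres as units, -0.052 without IVF 4-cell replicate 2 and -0.27 without PA 4-cell replicate 3, with leave-outs from -0.27 to 0.46. SMAD7 turned to -0.30 and -0.0024 without the 2 blastomeres. Median-ratio scaling moved the median of all genes in the IVF 2- to 4-cell step from -0.23 to 0.19. The SMAD5 4- to 8-cell difference in IVF was -7.37 and -4.21 with pseudocounts of 0.1 and 5 and -4.90 with median-ratio scaling, and -6.30 to -5.79 over leave-outs. In PA it was -1.20 as a mean of log2 values, -1.23 with blastomeres as units, 0.0061 without the 2 blastomeres, and -0.99 to -0.27 over leave-outs. Median-ratio scaling put SMAD5 at 1.69 FPKM in the IVF and 423 FPKM in the PA 8-cell embryo. The cause was not tested. Pathway calls were lost 37 times, 3 of them on leaving out an embryo of the 1- to 4-cell groups and 10 when only the groups compared were fitted.

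Embryo numbers were not stated to link groups, and same-numbered embryos correlated in their deviations by a median of 0.0083 (-0.041 to 0.36, 45 pairs). With the embryo number as a replicate block no SMAD call changed, and SMAD7 was 3.87 in IVF and 2.18 in PA; the call of RGMB (2.91, adjusted p 0.080) was lost. Each 8-cell group is 1 embryo, which limits every 8-cell statement.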

Other observations

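Values of pathway genes outside the account above were as follows. GDF3, a ligand of the nodal branch, averaged below 1 FPKM at the 1- and 2-cell stages and 21.4 ± 36.8 and 49.4 ± 39.0 FPKM in IVF and PA 4-cell embryos. The 3 IVF 8-cell blastomeres held 15.9 to 24.9 FPKM of it, while in PA it stood in 1 of 3, at 234 FPKM. None of its steps was called with all cells, but without the near-repeat PA 4-cell blastomeres its PA 2- to 4-cell step was (4.87, adjusted p 0.017), with a PA 4-cell mean of 57.1 ± 42.1 FPKM. LEMD3, an inner nuclear membrane protein that binds SMADs, was 25.7 ± 3.95 FPKM in IVF 1-cell embryos, and at most 0.248 FPKM in any 8-cell blastomere. GREM1, a secreted BMP antagonist, was 3.16 ± 1.90 and 2.06 ± 2.14 FPKM at the 1-cell stage and at most 0.0258 FPKM at the 8-cell stage.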
